A study of Mus musculus with 4 samples.

Results

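The genes described here encode the respiratory chain of mitochondria, complexes I to V, in bulge stem cells of the hair follicle. They were taken by symbol: every row of the array table that the platform's annotation assigns to exactly 1 gene whose symbol begins with Ndufa, Ndufb, Ndufc, Ndufs, Ndufv, Uqcr, Cox4, Cox5, Cox6, Cox7, Cox8 or Atp5, together with Sdha, Sdhb, Sdhc, Sdhd, Cyc1 and Cycs. This gave 118 of the 21780 rows that name 1 gene, and 91 of 19935 genes. Among the 91 genes, 34 encode subunits of complex I, 4 of complex II, 9 of complex III, 18 of complex IV and 17 of complex V. The others are Cycs, which encodes the electron carrier cytochrome c, 7 assembly factors of complex I that share the Ndufa prefix, and Ndufa4l2, a paralog of Ndufa4. Ndufa4 is known as a subunit of complex IV and was counted there. Ndufb1, Ndufb4 and Cox7c had no row that named them alone and were not analysed here, nor were the subunits encoded in mitochondrial DNA.

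The source was male CD-1 mice aged 56 days after birth, whose follicles were resting (second telogen). Skin cells positive for CD34 as well as alpha6 integrin were collected by flow sorting. The mice had received CSA at 100 mg/kg or a vehicle by injection into the peritoneum over 3 days, with 2 biological replicates of each group and 1 array per replicate. The labels neither spell out CSA, which in work on calcineurin stands for cyclosporine A, nor name the vehicle or the number of mice behind a sample. The series title asks how calcineurin and Nfatc1 tie the quiescence of skin stem cells to hormonal signals in pregnancy and lactation, while these 4 arrays come from males.

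The respiratory chain sits in the inner mitochondrial membrane. Complexes I and II pass electrons from NADH and succinate to coenzyme Q, complex III passes them on to cytochrome c and complex IV to oxygen. Complexes I, III and IV pump protons, and complex V, the ATP synthase, lets protons flow back to make ATP. Quiescent stem cells of several tissues, those of the hair follicle among them, are known for leaning on glycolysis more than on respiration. Cyclosporine A also binds cyclophilin D, the product of Ppif, in the mitochondrial matrix.

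Values are on a log scale taken as log2, and every row had been centred on a baseline whose definition the sources do not give. A value thus says how far a gene stood from its own baseline, and levels of different genes cannot be compared. The array medians lay between -0.0224 and 0.0646, and all 4 arrays were used. Of the bulge markers, Cd34, one of the genes of the sort, stood at 1.75 and 3.60 under CSA against 4.05 and 4.25 under vehicle. Lhx2, Sox9, Tcf7l1, Nfatc1 and Lgr5 were above the baseline on all 4 arrays. Krt15 lay between 0.03 and 0.26, and Itga6 between -1.0 and 0.08. Of the 8 bulge markers 6 were lower in CSA (median -0.206), and CSA replicate 1 was the lowest array for 6. Their summed levels were 4.33 and 11.98 under CSA against 8.78 and 12.46 under vehicle, so that CSA replicate 1 stood apart. In sorted populations such as these, fewer cells of a type and less RNA per cell cannot be told apart.

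Respiratory chain genes as a group had a slightly higher mean under CSA, but no single member passed the test. Their median level was -0.123 and 0.196 on CSA replicates 1 and 2, against -0.223 and -0.141 on the vehicle arrays. Summed levels were -19.79 and 17.77 under CSA against -24.47 and -16.78 under vehicle. By these sums CSA replicate 1 lay between the vehicle arrays, and only CSA replicate 2 stood clearly above them. The median difference, CSA minus vehicle, was 0.206 on the log2 scale over the 91 genes, against -0.044 over all 19935 genes. The CSA mean lay above the vehicle mean for 71 members and below it for 20. Over all genes it lay above for 41.1% and below for 58.9%. limma called 0 of the 91 members at an adjusted p under 0.05 and 0.0% of all genes, with an adjusted p of 0.999 for every member. At an unadjusted p under 0.05 limma gave 4 members, all higher in CSA, where 1.83% of all genes were higher at that level. Groups did not overlap in 34 members, 32 of them higher in CSA and 2 lower, against 10.9% and 15.4% of all genes in those directions. They stood at least 1.5-fold apart without overlap in 11 members higher in CSA, against 3.91% of all genes, and in 1 lower, against 1.99%. With 2 arrays against 2 an exact two-sided permutation test of a single value cannot go below p = 0.333. The members were chosen with earlier results of these data known, so these counts are a description and not independent support.

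**Figure D1:**
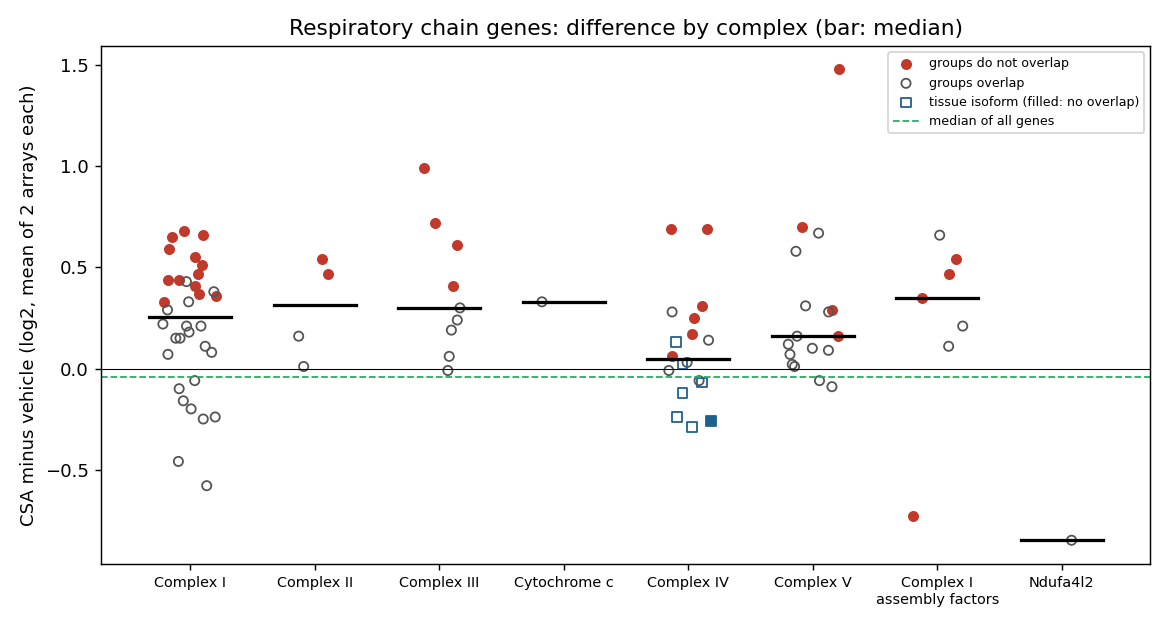
Each point is 1 of the 91 genes, plotted by complex (x axis) and by its CSA minus vehicle difference on the log2 scale (y axis); filled points are genes whose groups did not overlap, squares are tissue isoforms of complex IV, black bars are medians and the dashed line is the median of all genes. Medians were 0.251 for complex I, 0.316 for complex II, 0.299 for complex III, 0.049 for complex IV and 0.158 for complex V, all above the -0.044 of all genes.

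Promoter sequences of 7 members are shown first, at least 1 from each complex, because genes of the respiratory chain are known for promoters bound by NRF1 and by the ETS factor GABP. They were read from RefSeq's promoter windows of assembly GRCm38.p6, up to 200 bases before the start and stopping where another gene begins. Searched on both strands were GCGCANGCG for NRF1, CCGGAAG for GABP and other ETS factors and AAGATGGCG for YY1, and matches of different motifs were allowed to overlap. Capitals mark matches to a motif. For Ndufa5, which has 2 promoters in the table, the start farther upstream was taken. Ndufa5 and Ndufa8 of complex I were taken for their differences, Cox7b and Atp5g1 of complexes IV and V for theirs, and Sdha, Uqcrh and Atp5h for their matches. In the same order as the lines below, their windows are chr6:24527691-24527890 (minus strand), chr2:36049339-36049472 (minus strand), chr13:74350241-74350316 (minus strand), chr4:116075071-116075268 (minus strand), chrX:106015500-106015699 (plus strand), chr11:115419920-115420093 (minus strand) and chr11:96075632-96075831 (minus strand). The start of the gene follows the last base of each line.
Ndufa5: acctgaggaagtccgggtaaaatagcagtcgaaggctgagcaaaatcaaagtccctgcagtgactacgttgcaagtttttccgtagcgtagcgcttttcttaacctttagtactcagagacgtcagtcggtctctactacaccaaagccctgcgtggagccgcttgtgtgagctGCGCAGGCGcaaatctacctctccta
Ndufa8: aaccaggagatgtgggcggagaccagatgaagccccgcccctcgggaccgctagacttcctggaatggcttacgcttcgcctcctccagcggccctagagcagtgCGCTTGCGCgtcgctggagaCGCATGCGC
Sdha: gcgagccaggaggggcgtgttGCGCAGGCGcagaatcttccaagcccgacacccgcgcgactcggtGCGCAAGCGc
Uqcrh: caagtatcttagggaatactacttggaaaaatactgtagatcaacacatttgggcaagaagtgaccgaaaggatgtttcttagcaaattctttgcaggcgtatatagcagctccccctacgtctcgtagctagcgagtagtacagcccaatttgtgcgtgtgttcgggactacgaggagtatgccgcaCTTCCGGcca
Cox7b: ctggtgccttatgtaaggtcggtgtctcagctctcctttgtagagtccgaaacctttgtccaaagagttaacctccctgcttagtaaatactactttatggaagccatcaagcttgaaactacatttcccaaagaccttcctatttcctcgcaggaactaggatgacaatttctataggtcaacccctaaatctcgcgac
Atp5h: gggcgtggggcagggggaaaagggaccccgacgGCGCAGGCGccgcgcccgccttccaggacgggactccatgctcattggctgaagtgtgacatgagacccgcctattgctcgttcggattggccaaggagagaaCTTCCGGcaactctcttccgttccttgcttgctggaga
Atp5g1: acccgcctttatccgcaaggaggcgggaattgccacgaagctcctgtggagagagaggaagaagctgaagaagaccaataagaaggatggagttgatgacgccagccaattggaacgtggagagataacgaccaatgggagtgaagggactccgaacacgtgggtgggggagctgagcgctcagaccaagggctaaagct

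Of the 91 genes 74 had a promoter in that table, 79 promoters in all. The NRF1 motif was found in 29.1% of them, against 6.25% of all 32851 promoters and 8.58% of those of protein-coding genes. The ETS motif was found in 22.8%, against 8.86% and 11.6%, and the YY1 motif in 8.86%, against 1.4% and 1.83%. Ndufa8 carried 2 NRF1 matches, beginning 29 and 9 bases before the start. Sdha carried 2 in the bases shown and 3 in its whole window. Atp5h carried an NRF1 and an ETS match. Uqcrh had a match to the ETS motif 10 bases before its start. Cox7b and Atp5g1 had none of the 3 motifs in the whole window. Complex V had at least 1 motif in 11 of 18 promoters, complex I in 16 of 33 and complex IV in 3 of 13. The 39 member genes with a motif had a median difference of 0.31 and 34 of them were higher in CSA, while the 35 without had 0.15 and 26. The 2 sets differ in make-up: the 4 tissue isoforms of complex IV with a promoter here had 0 motifs and all fall among the 35. A tie between motif and difference was not tested. A match to such letters is a description of the sequence, and binding was not measured.

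Complex I takes electrons from NADH in its matrix arm and pumps protons in its membrane arm. Of its 34 measured subunit genes, 26 were higher in CSA and 8 lower, with a median of 0.251 and a range from -0.58 to 0.68. The groups did not overlap in 13, all higher. Genes of the matrix arm had a median of 0.373 (12 of 15 higher) and those of the membrane arm 0.164 (13 of 18 higher). Without CSA replicate 2 the membrane arm turned to -0.101 (7 of 18 higher), while the matrix arm was at 0.19 (10 of 15 higher). In the matrix arm, Ndufa5 was 0.14 and 0.27 under CSA against -0.48 and -0.41 under vehicle. Both CSA values lay above both vehicle values, and each group kept within a narrow range. This makes 0.65 ± 0.16, where ± gives the moderated standard error from limma over 2 arrays per group here and throughout, and a fold of 1.57 (limma unadjusted p = 0.0151, adjusted 0.999). Its promoter, shown above, carries an NRF1 match.

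Ndufa6, an accessory subunit that binds the acyl carrier protein, was 0.46 and 0.17 under CSA against -0.38 and -0.30 under vehicle. Its difference was 0.66 ± 0.19 (limma unadjusted p = 0.0224), and again the groups were apart. Ndufa7 was 0.08 and 0.60 under CSA against -0.19 and -0.30 under vehicle, a difference of 0.59 ± 0.24. Here CSA replicate 2 stood well above replicate 1, which lay close to the vehicle arrays. Ndufa8, a membrane arm subunit on the side of the intermembrane space, was -0.05 and 0.46 under CSA against -0.62 and -0.33 under vehicle, which gave 0.68 ± 0.26. These were the 4 complex I genes at least 1.5-fold apart without overlap.

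The core subunits of the matrix arm carry the flavin and the iron-sulfur clusters along which electrons travel. Of 6 measured, 5 were higher in CSA, with a median of 0.389. Ndufs3 was 0.06 and 0.04 under CSA against -0.28 and -0.42 under vehicle (difference 0.41 ± 0.16), with nearly equal CSA values. Ndufv1, which binds NADH and the flavin, differed by 0.44 ± 0.21 and Ndufv2 by 0.37 ± 0.18, both without overlap. Ndufs7, next to the site of coenzyme Q, was 0.04 and 0.67 under CSA against -0.26 and -0.04 under vehicle (0.51 ± 0.28). Ndufs1, the largest of the core subunits, did not follow them: it was -0.12 and 0.26 under CSA against -0.18 and 0.15 under vehicle, a difference of 0.08 ± 0.23. Ndufs8, another iron-sulfur subunit, was -1.59 on CSA replicate 1 and 0.63 on CSA replicate 2, on either side of the vehicle values of -0.30 and -0.34.

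Other genes of complex I showed the same split between the CSA arrays. The CSA arrays lay more than 1 log2 unit apart for 6 of its 34 genes, and the vehicle arrays for 1, where 1635 and 1446 of all 19935 genes did so. CSA replicate 1 was the low array in all 6. Ndufs5, at the foot of the membrane arm, was -1.28 and 0.66 on the CSA arrays, and Ndufb2 was -1.22 and 0.24. Ndufb3 was -1.26 and 0.20 and Ndufa11, next to the junction of the arms, -1.10 and 0.69. The sixth, Ndufa9, was -0.95 and 0.07. Ndufa11 and Ndufb3 had the lowest differences of the complex, at -0.58 ± 0.64 and -0.46 ± 0.53, and without CSA replicate 1 these were 0.31 and 0.27. For 29 of the 34 genes CSA replicate 2 held the highest value.

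**Figure D2:**
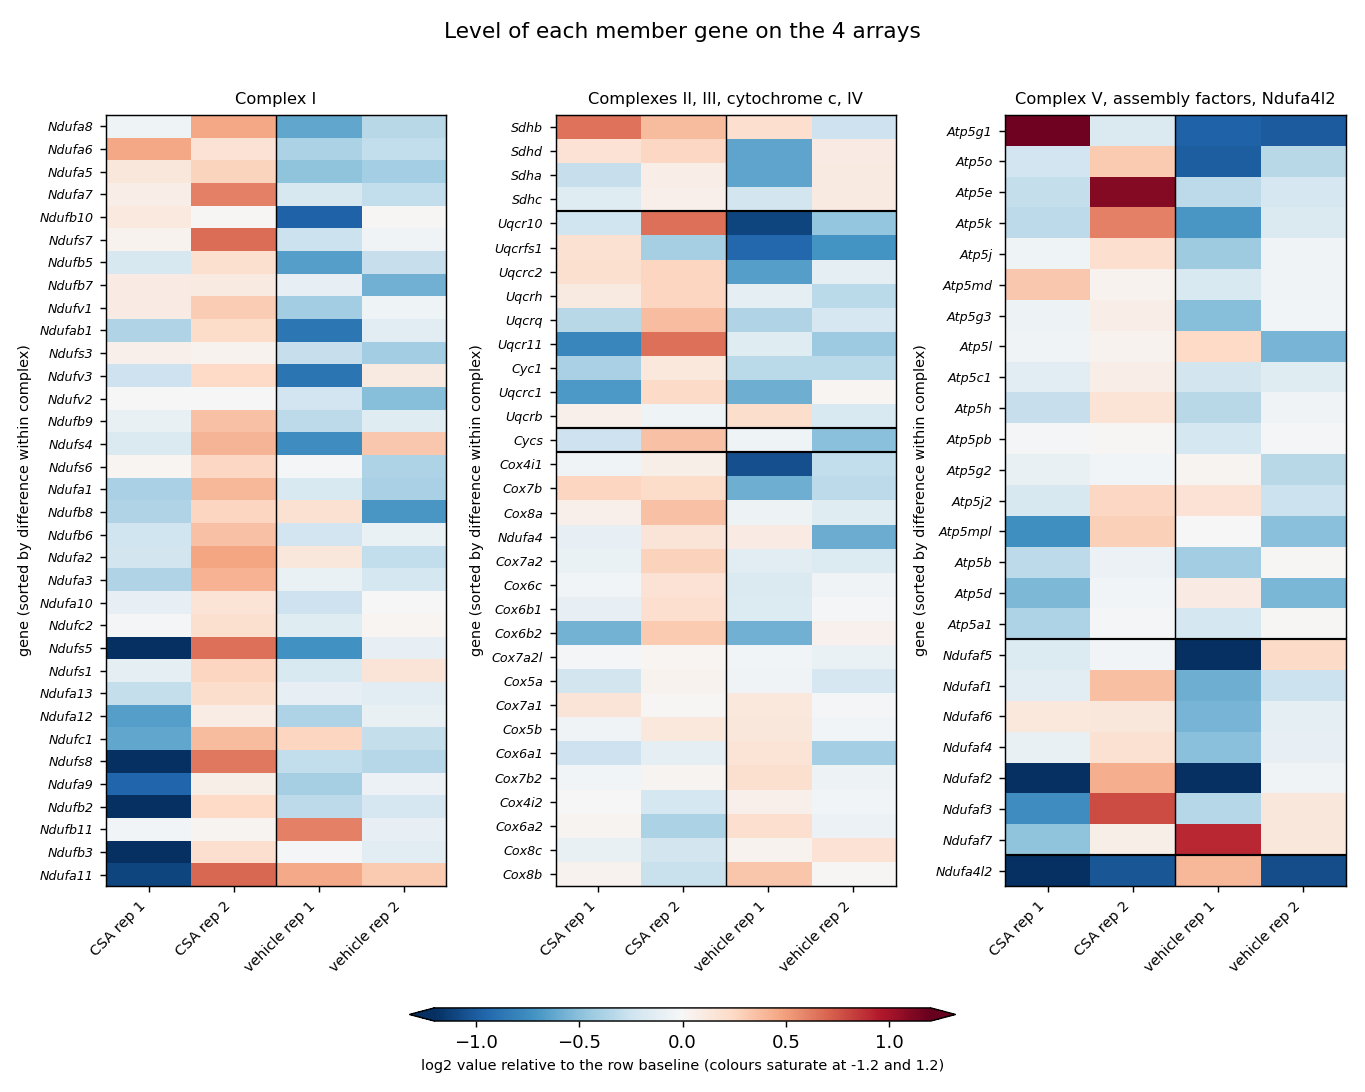
Each row is a gene, each column 1 of the 4 arrays, and the colour is the log2 value relative to the row's baseline; genes are ordered by their CSA minus vehicle difference within each complex and black lines part the complexes. CSA replicate 2 was the highest array for 62 of the 91 genes, against 20.5% of all genes. Vehicle replicate 1 was the lowest for 44.0% of them, against 21.2% of all genes, and CSA replicate 1 for 25.3%, against 22.7%.

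Complex II, succinate dehydrogenase, links the citric acid cycle to the chain and has no subunit encoded in mitochondrial DNA. All 4 of its genes had a higher CSA mean, with a median of 0.316, though Sdhc did so by only 0.01 ± 0.20. Sdhb, the iron-sulfur subunit, was 0.65 and 0.38 under CSA against 0.20 and -0.25 under vehicle. The groups were apart, and the difference was 0.54 ± 0.24. Sdhd, a membrane anchor, was 0.17 and 0.25 under CSA against -0.63 and 0.10 under vehicle, a difference of 0.47 ± 0.30. Without vehicle replicate 1, its low array, the difference was 0.11. Sdha, the flavoprotein, was -0.28 and 0.08 under CSA against -0.63 and 0.11 under vehicle (0.16 ± 0.33), and the groups overlapped. The other anchor gene, Sdhc, was -0.15 and 0.06 under CSA against -0.22 and 0.11 under vehicle. Vehicle replicate 1 held the lowest value for 3 of the 4 genes, and without it the median of the complex was -0.024.

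Complex III, the cytochrome bc1 complex, had 8 of 9 genes higher in CSA, with a median of 0.299. Uqcr10, a small subunit, had the largest difference of the complex: it was -0.24 and 0.66 under CSA against -1.10 and -0.46 under vehicle. The groups did not overlap, but each spread widely, and the difference was 0.99 ± 0.41 (a fold of 1.99). Without CSA replicate 2 it was 0.54. Uqcrfs1, the Rieske iron-sulfur protein that takes electrons from coenzyme Q, was 0.18 and -0.40 under CSA against -0.94 and -0.72 under vehicle (0.72 ± 0.26). In this gene CSA replicate 1 was the higher CSA array. Uqcrc2, a core protein, was 0.19 and 0.26 under CSA against -0.66 and -0.11 under vehicle, with a difference of 0.61 ± 0.24.

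Its partner core protein Uqcrc1 was -0.69 and 0.23 under CSA against -0.59 and 0.02 under vehicle, so that the groups overlapped and the difference was 0.06 ± 0.41. Uqcrh, the hinge protein, was 0.11 and 0.26 under CSA against -0.12 and -0.32 under vehicle (0.41 ± 0.18). Cyc1, cytochrome c1, was -0.39 and 0.13 in CSA and -0.32 on both vehicle arrays, a difference of 0.19 ± 0.24. Here the CSA arrays enclosed the vehicle arrays. The remaining Uqcrb, Uqcrq and Uqcr11 lay between -0.01 and 0.30, with overlap in each. Cycs, the mobile cytochrome c that carries electrons from complex III to complex IV, was -0.25 and 0.35 under CSA against -0.05 and -0.50 under vehicle (0.33 ± 0.30). Its other rows differed from this one, as given in the closing observations.

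Complex IV, cytochrome c oxidase, had the lowest median of the 5 complexes, 0.049, with 11 of 18 genes higher in CSA. It turned to -0.011 without CSA replicate 2 and to -0.05 without vehicle replicate 2. The genes parted by type. The 10 subunit genes used across tissues, Ndufa4 included, had a median of 0.212 and 8 were higher, while the 7 isoforms known from particular tissues had -0.121 and 2 were higher. Without CSA replicate 2 these medians were 0.072, with 6 of 10 higher, and -0.09, with 1 of 7 higher. Cox7b had the largest moderated t of the complex. It was 0.26 and 0.22 under CSA against -0.59 and -0.31 under vehicle. Its difference was 0.69 ± 0.18, a fold of 1.62 (limma unadjusted p = 0.0179, adjusted 0.999), and a second row gave 0.64. Cox4i1, the general form of subunit 4, was -0.04 and 0.07 under CSA against -1.05 and -0.30 under vehicle (0.69 ± 0.31). Most of that came with vehicle replicate 1: without it the difference was 0.31. Cox8a, the general form of subunit 8, was 0.06 and 0.35 under CSA against -0.06 and -0.15 under vehicle (0.31 ± 0.18).

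Cox7a2 was -0.08 and 0.28 under CSA against -0.14 and -0.16 under vehicle (0.25 ± 0.20), without overlap. Cox6a1 was -0.25 and -0.12 under CSA against 0.16 and -0.41 under vehicle (-0.06 ± 0.26). Cox6b1 was -0.10 and 0.20 under CSA against -0.16 and -0.02 under vehicle (0.14 ± 0.19), and in both the groups overlapped. Cox5a and Cox5b, near the catalytic core, differed by 0.03 ± 0.19 and -0.01 ± 0.17, with overlap in both. Cox7a2l, which joins complexes III and IV into supercomplexes, was -0.01 and 0.02 under CSA against -0.03 and -0.08 under vehicle (0.06 ± 0.15). Among the isoforms of heart and skeletal muscle, Cox6a2 was 0.03 and -0.38 under CSA against 0.20 and -0.07 under vehicle (-0.24 ± 0.23). Cox8b was 0.04 and -0.27 under CSA against 0.33 and 0.01 under vehicle (-0.29 ± 0.22). Cox7a1 was 0.15 and 0.01 under CSA against 0.13 and -0.01 under vehicle (0.02 ± 0.17). CSA replicate 2 was the lowest array for 4 of the 7 tissue isoforms, Cox6a2 and Cox8b among them, and for 0 of the other members.

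Cox4i2, the isoform known from lung, was 0.00 and -0.21 under CSA against 0.06 and -0.03 under vehicle (-0.12 ± 0.17). Of the isoforms known from testis, Cox8c was -0.09 and -0.22 under CSA against 0.04 and 0.17 under vehicle. It differed by -0.26 ± 0.17 and was 1 of the 2 members lower in CSA without overlap. Cox6b2 was -0.57 and 0.31 under CSA against -0.58 and 0.05 under vehicle, following the replicate number rather than the treatment (0.13 ± 0.41). Cox7b2 was -0.03 and 0.03 under CSA against 0.19 and -0.06 under vehicle (-0.07 ± 0.18). Of 13 markers of skeletal muscle, a tissue under the skin, 10 were lower in CSA and 9 had CSA replicate 2 as their lowest array, with a median of -0.139 and summed levels of 1.57 and -2.51 under CSA against 1.47 and -0.65 under vehicle. Without CSA replicate 2 the muscle markers' median was 0.005, and that of the tissue isoforms -0.09. Ckm and Myh4, among the 10 lower, stayed between -0.28 and 0.30. The 3 higher in CSA were Mylpf (0.50 ± 0.23) and Myl1 (0.28 ± 0.18), both without overlap, and Tnnc2 (0.01 ± 0.42). Of 5 testis germ cell markers 3 were higher in CSA, with a median of 0.036 that turned to -0.32 without CSA replicate 1. The part of such cells in the isoform values was not tested.

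Complex V, the ATP synthase, had 15 of 17 genes higher in CSA, with a median of 0.158. Its c ring, the rotor that protons turn, is encoded by Atp5g1, Atp5g2 and Atp5g3, whose mature products are known to be the same protein. Atp5g1 had the largest difference of all 91 members. It was 1.17 and -0.17 under CSA against -0.97 and -1.0 under vehicle. The vehicle values were nearly equal and the CSA values were spread. The difference was 1.48 ± 0.49, a fold of 2.8 (limma unadjusted p = 0.0377, adjusted 0.999), and a second row of the gene gave 1.36. Without CSA replicate 1 the difference was 0.81 and without CSA replicate 2 it was 2.15. Atp5g2 was -0.09 and -0.03 under CSA against 0.03 and -0.33 under vehicle (0.09 ± 0.20), and Atp5g3 was -0.06 and 0.08 against -0.51 and -0.03 (0.28 ± 0.23). The groups overlapped for both.

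In the peripheral stalk, which holds the catalytic head still, all 4 genes had a higher CSA mean. Atp5o, the subunit that ties the stalk to the head, was -0.23 and 0.31 under CSA against -0.99 and -0.33 under vehicle (0.70 ± 0.33), without overlap. Without vehicle replicate 1 it was 0.37. Atp5j, Atp5h and Atp5pb differed by 0.31 ± 0.22, 0.12 ± 0.24 and 0.10 ± 0.17. The F1 head, where ATP is made, had 3 of 5 genes higher and a median of 0.014, which turned to -0.106 without CSA replicate 2. Atp5b, the catalytic beta subunit, was -0.31 and -0.07 under CSA against -0.42 and 0.01 under vehicle (0.01 ± 0.23). Atp5a1, the alpha subunit, differed by -0.09 ± 0.21. Atp5e, the smallest part of the head, was 1.10 on CSA replicate 2 and between -0.31 and -0.20 on the other 3 arrays, so that its difference of 0.67 ± 0.51 was -0.03 without that array.

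The small membrane subunits of complex V, which help the enzyme form dimers, had a higher CSA mean in 5 of 5, with a median of 0.163. Without vehicle replicate 2 the median turned to -0.138 and 2 of 5 were higher. Atp5k was -0.31 and 0.60 under CSA against -0.70 and -0.17 under vehicle (0.58 ± 0.39). CSA replicate 1 lay between the vehicle arrays here. Atp5md was 0.32 and 0.04 under CSA against -0.18 and -0.04 under vehicle (0.29 ± 0.19), without overlap, and its 3 rows lay between 0.25 and 0.29. Atp5l was measured by 6 rows, with differences between 0.16 and 0.32, and in each row the vehicle values enclosed the CSA values. The row used was -0.04 and 0.04 under CSA against 0.24 and -0.56 under vehicle. Without vehicle replicate 2 its difference was -0.24. Atp5j2 and Atp5mpl differed by 0.07 ± 0.26 and 0.02 ± 0.43.

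**Figure D3:**
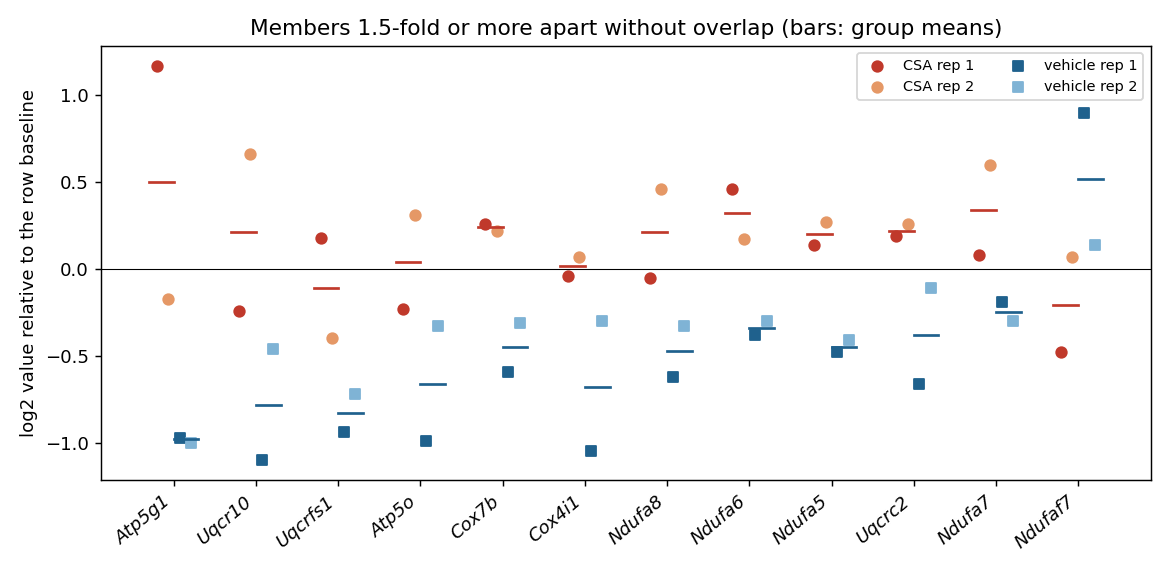
For the 12 members at least 1.5-fold apart without overlap (x axis), the log2 value relative to the row's baseline (y axis) is shown on each of the 4 arrays, with circles for CSA, squares for vehicle and bars for the group means. In the 11 higher in CSA the differences ran from 0.59 (Ndufa7) to 1.48 (Atp5g1), and the exception is Ndufaf7 at -0.73; vehicle replicate 1 was the lowest array for 9 of the 11.

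Assembly factors build complex I without staying in it. Of the 7 members of this kind 6 were higher in CSA, with a median of 0.346. Ndufaf1 was -0.14 and 0.36 under CSA against -0.59 and -0.26 under vehicle (0.54 ± 0.26), and Ndufaf6 was 0.13 and 0.14 against -0.56 and -0.11 (0.47 ± 0.22). Both were without overlap. Ndufaf7 went the other way: it was -0.48 and 0.07 under CSA against 0.90 and 0.14 under vehicle (-0.73 ± 0.36). Without vehicle replicate 1 it was -0.35. Ndufaf5 was -1.74 on vehicle replicate 1 and between -0.16 and 0.23 on the other arrays, and without that array its difference of 0.66 ± 0.70 turned to -0.33. Without vehicle replicate 1 the median of the 7 factors was -0.126. Ndufa4l2, a paralog known to be induced in hypoxia, was -1.33 and -1.03 under CSA against 0.40 and -1.06 under vehicle (-0.85 ± 0.54), and without vehicle replicate 1 it was -0.12.

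Beyond these members, 39 measured assembly factors of all the complexes had 27 genes higher and 12 lower in CSA (median 0.083). Without CSA replicate 2 their median turned to -0.168, with 12 of 39 higher, and without CSA replicate 1 it was 0.367, with 34 higher. Cox14, needed to make the first subunit of complex IV, differed by 0.64 ± 0.33, Cox18 by 0.34 ± 0.22 and Cmc1 by 0.33 ± 0.21. On CSA replicate 1 this list had its lowest level for 19 of the 39, and on CSA replicate 2 its highest for 24. Of 12 measured genes of coenzyme Q synthesis 7 were higher and 5 lower (median 0.146). Without CSA replicate 2 the median turned to -0.05, with 6 of 12 higher, and without CSA replicate 1 it was 0.344. Coq10b was 1.39 and -0.21 under CSA against -1.12 and -0.19 under vehicle (1.25 ± 0.66), Coq9 differed by 0.32 ± 0.17 and Pdss2 by -0.36 ± 0.20. The 15 measured genes of the citric acid cycle and pyruvate dehydrogenase, which feed the chain, were 7 higher and 8 lower. Their median was -0.009 and ran from -0.195 without CSA replicate 2 to 0.095 without vehicle replicate 2. Pdha1 and Dlat, of pyruvate dehydrogenase, differed by -0.54 ± 0.23 and -0.40 ± 0.20, and Pdhb by 0.31 ± 0.23. In each of these 3 lists limma gave 0 genes at an adjusted and 0 at an unadjusted p under 0.05.

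Of 10 measured carriers, channels and related genes of the mitochondrial membranes 4 were higher in CSA and 6 lower, with a median of -0.023 that ran from -0.091 without vehicle replicate 1 to 0.125 without vehicle replicate 2. Slc25a5, which exchanges ADP for ATP, was 0.22 and -0.17 under CSA against -1.12 and -0.63 under vehicle, a difference of 0.90 ± 0.27 (limma unadjusted p = 0.0271, adjusted 0.999). Its relative Slc25a4 differed by -0.40 ± 0.35, and Slc25a3, the phosphate carrier, by 0.22 ± 0.19. Ppif, the gene of cyclophilin D, was -0.09 and -0.30 under CSA against -0.03 and 0.06 under vehicle (-0.21 ± 0.17), and both CSA values lay below both vehicle values.

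The median difference moved with both CSA arrays, in opposite directions. CSA replicate 2 held the highest value for 62 of the 91 members, against 20.5% of all genes. Without it the median difference was 0.04 and 48 of 91 members were higher in CSA, where 44.0% of all genes were. Without CSA replicate 1 the median was 0.446, with 81 members higher, against 41.4% of all genes. That array was also the lowest for 6 of the 8 bulge markers, and their part in the result was not tested. Leaving out vehicle replicate 1 gave 0.149, and leaving out vehicle replicate 2 gave 0.239. Comparing same-numbered arrays, the median of CSA minus vehicle was 0.049 for replicate 1 and 0.364 for replicate 2, against -0.083 and -0.012 over all genes. A higher CSA mean whichever single array was left out was found for 40 members, against 16.3% of all genes, and a lower one for 6, against 25.2%. The 32 members higher without overlap are among the 40 by construction. Over the 11 at least 1.5-fold higher, the differences with 1 array left out ranged from 0.31 to 2.15. That none fell below 0 is also by construction, since these 11 were chosen without overlap.

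Vehicle replicate 1 was the lowest array for 40 of the 91 members, against 21.2% of all genes. It was the highest array for 13 members and for 8620 of all 19935 genes. It also stood apart in markers of differentiated epidermis, a neighbouring cell type. Of 9 such markers 8 were lower in CSA (median -0.812), with summed levels of -6.54 and -3.36 under CSA, 8.43 on vehicle replicate 1 and -2.03 on vehicle replicate 2. Krt10 was 0.38 and Flg2 2.43 on vehicle replicate 1, while Calml3 was 2.34 and 2.40 on the vehicle arrays against 0.24 and 1.67 under CSA. In 5 of the 9 the groups did not overlap and were lower in CSA, against 15.4% of all genes. Without vehicle replicate 1 the median of the 9 was -0.362 and 3 were higher in CSA. With that array left out the median of the respiratory chain genes was 0.149 and 65 of 91 were higher in CSA, against 52.4% of all genes. Without it complex III had a median of 0.334, complex V 0.267 and complex I 0.151. Complex IV was then at 0.089, complex II at -0.024 and the complex I assembly factors at -0.126. The medians of fibroblast, endothelial, adipocyte, melanocyte and immune markers lay between -0.142 and -0.018, and between -0.022 and 0.028 without vehicle replicate 1. Their part in the result was not tested.

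**Figure D4:**
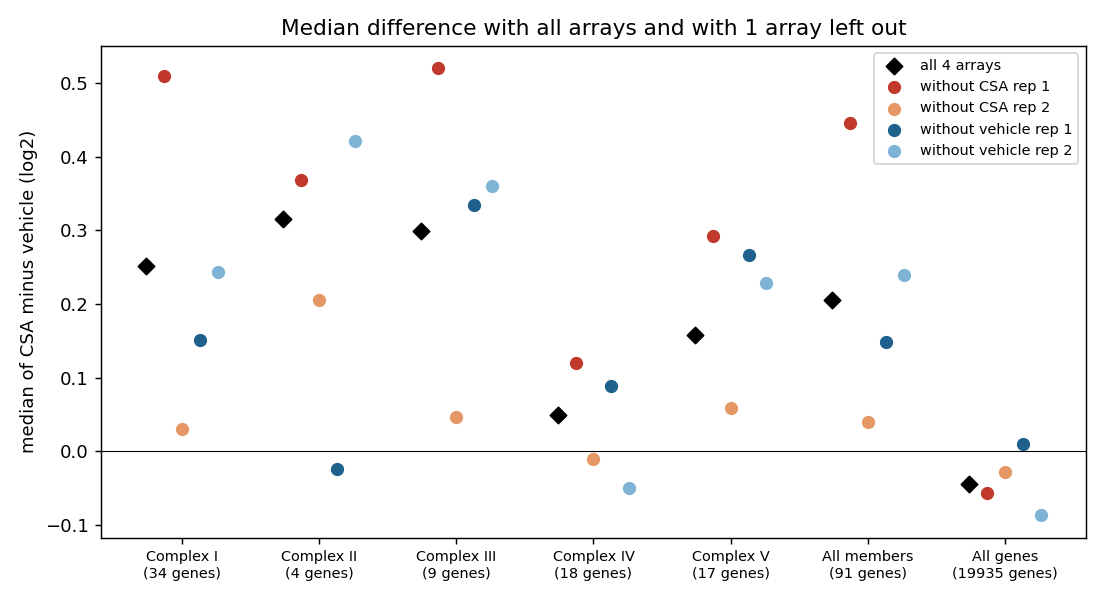
The median CSA minus vehicle difference on the log2 scale (y axis) is shown for each complex, for all members and for all genes (x axis), with all 4 arrays (diamonds) and with each array left out in turn (circles). Leaving out CSA replicate 2 brought the medians of complexes I, III and V down to 0.03, 0.046 and 0.059, and leaving out CSA replicate 1 took that of complex I to 0.509.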

How the data were processed

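RNA of 4 samples was hybridised to 1-colour arrays, from 20 ng of total RNA and 1 round of amplification to biotinylated cDNA per the labels' protocols. The deposited values are on a log scale taken as log2, centred per row by the authors; for base, baseline, software and normalization nothing was given in the sources used here. Only a build, mm8, is named in the submitters' processing notes. Gene names came from the annotation of the platform, in which 21780 of 28815 rows name 1 gene, 1605 several and 5430 none. Where a gene had several rows, the 1 whose mean over the arrays was highest stood for it, which on centred values is the row farthest above its baseline and not the brightest.

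All 19935 genes were fitted with limma 3.58.1 in R 4.3.3 (lmFit and eBayes without a trend or block, two-sided), and p-values were adjusted by Benjamini-Hochberg over all genes with a threshold of 0.05. The prior degrees of freedom were 2.13. The fit was tested on simulated data. The members, gene lists and alternatives were chosen with earlier results of these data known. Array values are given for all genes of complex II, Cyc1 and Cycs, for members 1.5-fold or more apart without overlap, for the 4 members per complex with the largest absolute moderated t, for tissue isoforms, and for Ndufs1, Sdha, Uqcrc1, Cox4i1 and Atp5b; other members illustrate a count and were named with their values known. Of each related list up to 3 genes with the largest absolute t are named, and Slc25a4 was added with its values known. Lists are described by counts and medians. Genes with near-identical copies elsewhere in the genome may share signal between rows. The number of arrays limits the precision.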

Additional observations from a re-analysis of the deposited data

How the results depend on the processing

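Every alternative run gave 0 genes past an adjusted p of 0.05 by limma, among all genes and among members: a mean-variance trend, quantile normalization, arrays centred on their medians, the mean of a gene's rows, every row as its own feature, a filter at the 25th percentile of the gene means, the replicate number as a block, and each array left out. At an unadjusted p under 0.05 limma gave 4 members, 5 with the trend and 11 with the replicate block, and 565, 547 and 914 of all genes. The labels do not say that the number pairs arrays; over rows the deviations of same-numbered arrays had a Pearson r of 0.216, and the block also called 0 genes (smallest adjusted p 0.866). Quantile normalization and centring moved the median of all genes from -0.044 to -0.017, and left the members at 0.199 and 0.233. The filter at the 25th percentile kept 38 of 91 members, with 16 not overlapping in place of 34 and 3 at least 1.5-fold apart in place of 12. On centred values this filter drops genes whose mean lay lowest against their own baseline, which need not be the faintest. With 1 array left out, the median of all members ranged from 0.04 to 0.446, of complex I from 0.03 to 0.509, II from -0.024 to 0.421, III from 0.046 to 0.52, IV from -0.05 to 0.12 and V from 0.059 to 0.293. Members without overlap then numbered 52 to 76 and those 1.5-fold apart 10 to 26, as 1 array against 2 overlaps less often. With 2 arrays per group, 0 calls under an alternative say nothing of stability. Signal over background was not used here.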

Other observations

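Regulators of mitochondrial biogenesis went both ways, 9 of 16 higher in CSA with a median of 0.031, which turned to -0.088 without vehicle replicate 1. Twnk, the helicase that replicates mitochondrial DNA, was -0.10 and 0.19 under CSA against -0.73 and -0.47 under vehicle, a difference of 0.64 ± 0.20 (limma unadjusted p = 0.0332, adjusted 0.999). Gabpa, the DNA-binding subunit of the ETS factor GABP, was 0.61 and 0.19 under CSA against -0.56 and -0.02 under vehicle (0.69 ± 0.28). Tfb2m, a factor of mitochondrial transcription, differed by 0.34 ± 0.19. Nrf1 itself was 0.33 and -0.38 under CSA against -0.18 and -0.24 under vehicle (0.18 ± 0.29), with both vehicle values between the CSA values. Of 9 genes of mitochondrial redox defence 5 were higher (median 0.077, and -0.137 without CSA replicate 2). Gpx4, which reduces lipid peroxides, was 0.29 and 0.71 under CSA against -0.76 and -0.05 under vehicle (0.91 ± 0.32, limma unadjusted p = 0.0475, adjusted 0.999). Sod2, the superoxide dismutase of the matrix, differed by 0.79 ± 0.46 and Nnt by -0.73 ± 0.47. Nrf1 was named after its values were seen.

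Of the members 18 had more than 1 row. In 14 of these the differences of the rows lay within 0.2 of each other. Cycs was the widest: the row used gave 0.33 and its other rows 0.97 and 1.11, and on those rows vehicle replicate 1 stood at -1.62 and -1.94. The rows of Ndufb11 gave -0.25 and 0.12, those of Ndufc1 -0.55 and -0.10 and those of Ndufa11 -0.91 and -0.58. The rows of Uqcrb ran from -0.01 to 0.12.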
